A study of Mus musculus with 18 samples.

Results

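The 10 genes described here belong to the response of cells to low oxygen and to glucose use: Hif1a, Epas1, Arnt, Egln1, Egln3, Vegfa, Slc2a1, Hk2, Pfkp and Pdk1. They were chosen by name, out of 21887 protein-coding genes, and every methylation peak that overlapped the GRCm38 span of a gene or the 2000 bases on either side of it was collected. All 10 genes were found, and peaks lay at each of them. DNA came from the hearts of male C57BL/6JR mice aged 12 weeks, with 3 mice in each of 6 groups and 1 library per mouse. In 5 groups the left anterior descending coronary artery had been ligated to produce a myocardial infarction (MI), and the tissue was collected from different mice after 10 min, after 1 h, after 6 h, after 24 h or after 72 h. The control group was a sham group, in which a suture was passed and left untied. All 6 groups were anaesthetized with sodium pentobarbital for the operation. The labels name myocardial tissue and, as cell type, cardiomyocytes, without describing an isolation of these cells or saying which zone of the heart was taken. In such tissue a shift in the mix of cells and a change of methylation within a cell cannot be told apart.

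Cells sense oxygen through prolyl hydroxylases (the products of Egln1 and Egln3), which mark the alpha subunits of hypoxia-inducible factor, HIF-1 alpha (Hif1a) and HIF-2 alpha (Epas1), for breakdown while oxygen is present. When oxygen falls, the alpha subunit persists, pairs with ARNT (also called HIF-1 beta) and binds DNA at a short core motif near its targets, among them genes for vessel growth (Vegfa), glucose uptake (Slc2a1), glycolysis (Hk2, Pfkp) and the block on pyruvate entry into mitochondria (Pdk1). Binding of HIF to its motif is known to be hindered by methylation of the CpG inside the motif, and the CpG-rich promoters of such genes are as a rule unmethylated.

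Methylated DNA immunoprecipitation sequencing (MeDIP-seq) enriches DNA fragments with an antibody against 5-methylcytosine. A peak is a place where such fragments accumulated in 1 library. It does not give the percentage of molecules that are methylated, and the absence of a peak does not show that the DNA is unmethylated. The authors' score of a peak, whose scale is not given in the sources used here, started at 50 in each of the 18 lists. The lists held between 34255 and 60653 peaks, with 44328 to 60130 in sham and 48608 to 60653 at 72 h, and the sequencing depth behind them is unknown. No 2 lists looked like the same library, since at most 0.00691% of the peaks of one list had the same start and end in another. Results are given in a pair of measures. Coverage is the percentage of a gene's window (its span plus 2000 bases on each side) that lay under peaks. A merged region is a stretch where peaks of the 18 libraries overlapped by at least 1 base.

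The promoter sequences of 9 of the 10 genes, from 250 bases before to 50 bases after a listed start, were examined first. CpGs and matches to the HIF motif were counted in such promoter sequences only. Motifs and CpGs elsewhere in the genes or their flanks were not examined. Epas1 was not matched. In 9 of 9 genes, no library of the 18 had a peak in the first listed promoter. Among all 32851 listed promoter sequences 8.93% had a peak in at least 1 library, and among the 8701 with 20 or more CpGs 1.24% had one. The exception among the members' sequences was the second start listed for Vegfa, which lies inside the gene, where 5 libraries had a peak (1 sham and 4 MI libraries). The sequences below are RefSeq's, from GRCm38.p6, written 5′ to 3′ on the strand of the gene. They show the promoter with peaks, the upstream promoter of the same gene, the promoter richest in CpG, that with the most motifs, and those of the hexokinase and the glucose transporter. Capitals mark the HIF core motif ACGTG or GCGTG and, for the opposite strand, CACGT or CACGC.
Vegfa, second listed start, chr17:46025114-46025413, minus strand: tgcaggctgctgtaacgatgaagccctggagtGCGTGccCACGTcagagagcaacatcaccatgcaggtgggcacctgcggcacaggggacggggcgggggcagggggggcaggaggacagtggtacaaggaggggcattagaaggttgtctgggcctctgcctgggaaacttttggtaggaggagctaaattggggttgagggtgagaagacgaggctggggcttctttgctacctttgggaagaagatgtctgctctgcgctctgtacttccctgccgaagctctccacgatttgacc
Vegfa, first listed start, chr17:46032328-46032627, minus strand: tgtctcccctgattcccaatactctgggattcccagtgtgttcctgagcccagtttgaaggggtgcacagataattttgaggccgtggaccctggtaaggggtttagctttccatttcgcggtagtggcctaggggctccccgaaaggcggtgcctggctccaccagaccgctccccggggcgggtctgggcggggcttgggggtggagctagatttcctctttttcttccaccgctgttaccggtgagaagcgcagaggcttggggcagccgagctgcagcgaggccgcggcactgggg
Egln1, chr8:124949205-124949504, minus strand: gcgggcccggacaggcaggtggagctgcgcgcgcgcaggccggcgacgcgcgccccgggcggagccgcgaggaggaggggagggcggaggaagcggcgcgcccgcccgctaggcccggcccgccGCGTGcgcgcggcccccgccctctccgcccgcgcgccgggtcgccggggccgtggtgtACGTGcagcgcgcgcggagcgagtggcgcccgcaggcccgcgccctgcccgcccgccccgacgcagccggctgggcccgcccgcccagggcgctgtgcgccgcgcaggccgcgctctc
Hk2, chr6:82774405-82774704, minus strand: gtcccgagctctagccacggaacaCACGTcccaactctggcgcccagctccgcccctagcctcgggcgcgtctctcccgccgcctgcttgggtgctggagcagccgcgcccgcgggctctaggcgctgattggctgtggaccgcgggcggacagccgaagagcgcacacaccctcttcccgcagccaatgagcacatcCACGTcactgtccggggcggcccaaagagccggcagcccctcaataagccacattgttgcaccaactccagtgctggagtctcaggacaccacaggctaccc
Slc2a1, chr4:119108495-119108794, plus strand: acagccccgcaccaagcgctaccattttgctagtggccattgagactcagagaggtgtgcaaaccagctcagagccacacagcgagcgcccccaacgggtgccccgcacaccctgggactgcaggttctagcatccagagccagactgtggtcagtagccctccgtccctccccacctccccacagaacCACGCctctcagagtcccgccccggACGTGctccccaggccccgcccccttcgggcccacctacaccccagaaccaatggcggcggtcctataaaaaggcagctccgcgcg
Pfkp, chr13:6648722-6649021, minus strand: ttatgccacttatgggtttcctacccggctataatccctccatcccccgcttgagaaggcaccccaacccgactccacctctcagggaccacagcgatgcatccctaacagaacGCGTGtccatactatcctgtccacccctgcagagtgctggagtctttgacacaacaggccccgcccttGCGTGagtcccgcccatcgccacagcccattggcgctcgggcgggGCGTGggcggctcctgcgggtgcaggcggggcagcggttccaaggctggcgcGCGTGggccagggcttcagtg

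The Egln1 promoter held 60 CpGs in 300 bases, the most among the members, and 2 motifs. Pfkp held 21 CpGs and 4 motifs, Hk2 held 25 and 2, and Slc2a1 held 18 and 2. The upstream Vegfa promoter held 16 CpGs and no match to these letters, and the internal one held 10 CpGs and 2 matches. Of the sequences not printed, Hif1a held 25 CpGs and 3 motifs, of which 2 overlap in a palindrome, Pdk1 held 25 and 2, Arnt 19 and 1, and Egln3 16 and 1. A match is a description of the letters only: 43.8% of all listed promoter sequences, and 73.6% of those with 20 or more CpGs, held at least 1. The nearest peak of any library lay 2365 bases from the Egln1 promoter, 1366 bases from the upstream Vegfa promoter, 1367 from that of Pfkp, 3029 from that of Hk2 and 7605 from that of Slc2a1. Peaks at these genes were thus found in their bodies and flanks, and not over the first listed starts.

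Along the 10 genes the peaks fell into 50 merged regions, from 2 at Hif1a to 7 each at Epas1 and Pfkp. Of these, 15 (30.0%) were seen in a single library, 31 in 2 to 11 libraries and 4 (8.0%) in 12 or more, and no region was present in all 18. Among all 152196 merged regions 29.2% were seen once, 17.2% in 12 or more libraries and 5.09% in all 18, and among the 79216 at any protein-coding gene these shares were 29.8%, 15.2% and 3.57%. The members' peaks scored lower than all peaks of the 18 lists, in genes or not. The 224 peaks had a median score of 67.2, against 72.1 over all peaks, and 11.6% of them scored 100 or more, against 21.7% of all. Scores of peaks at other protein-coding genes were not set apart, so the lower scores cannot be called particular to these genes. The 4 recurrent regions lay inside Epas1, Pfkp (2 regions) and Pdk1.

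**Figure D1:**
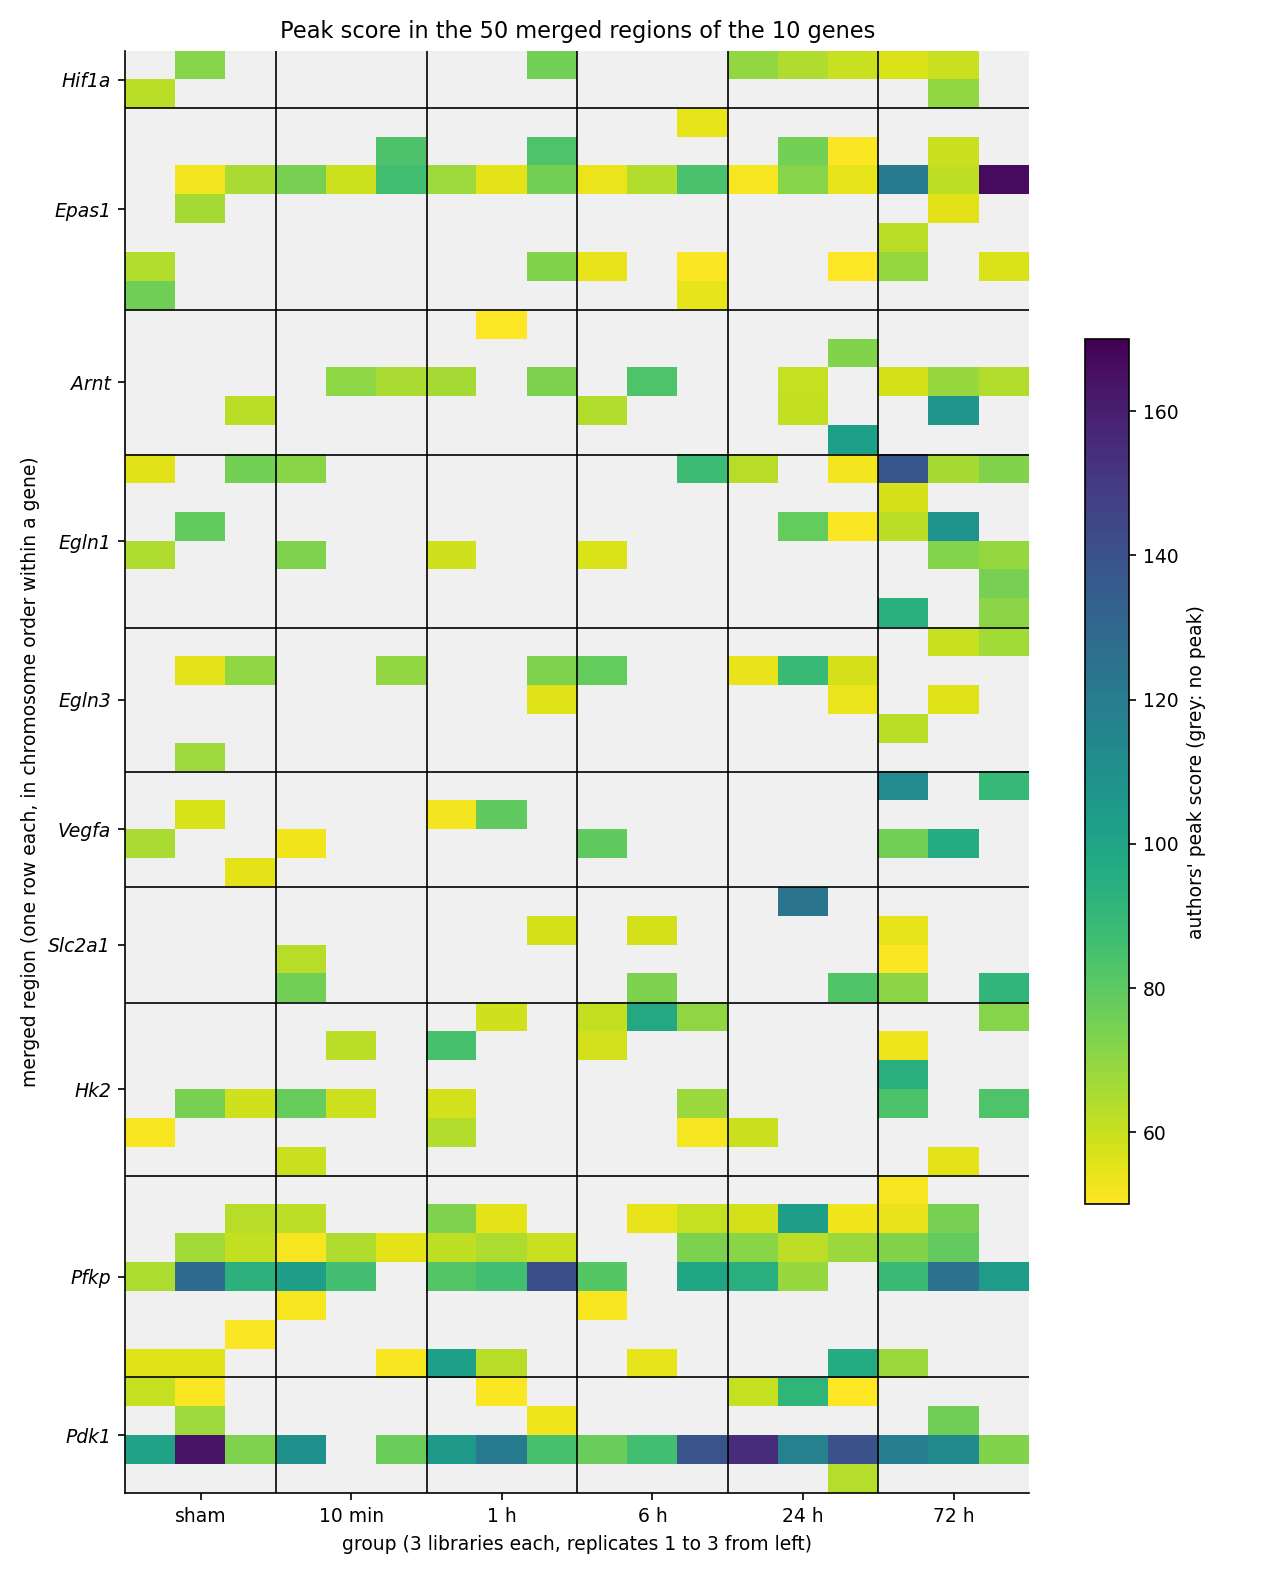
Peak score (colour, the authors' unit) in each of the 50 merged regions of the 10 genes, one row per region in chromosome order, in each of the 18 libraries, one column per library in replicate order within each group. Grey is no peak. Filled rows are few: 4 regions, in Epas1, Pfkp and Pdk1, were present in 12 or more libraries, and 15 were present in 1.

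Over the 18 libraries, mean coverage was highest at Pdk1, with 4.69% ± 2.18 (SD, n = 18) of the window under peaks, then Pfkp with 4.04% ± 1.55, Egln1 with 3.21% ± 3.55, Egln3 with 3.07% ± 3.09 and Vegfa with 3.00% ± 3.33. Lower came Hk2 with 2.30% ± 1.92, Epas1 with 2.19% ± 0.961, Slc2a1 with 2.18% ± 3.26, Arnt with 1.40% ± 1.04 and Hif1a with 0.875% ± 1.16. No 2 neighbours in this order differed by more than the spread of either between libraries. The members lay between the percentile 39.7 (Hif1a) and the percentile 81.8 (Pdk1) of all protein-coding genes. A peak was present in all 18 libraries at Epas1 and Pfkp, in 17 at Pdk1, in 14 at Hk2, in 13 each at Arnt and Egln1, in 11 at Egln3, in 10 at Vegfa, in 8 at Hif1a and in 7 at Slc2a1, so all 10 passed the filter of a peak in at least 6 libraries.

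Taken as one stretch of DNA, the 10 windows were covered by peaks for 1.98%, 2.56% and 2.31% in sham, 2.69%, 1.38% and 1.11% after 10 min, 2.50%, 1.93% and 2.47% after 1 h and 2.41%, 1.72% and 2.60% after 6 h. Coverage was 1.92%, 2.97% and 3.93% after 24 h and 4.29%, 4.35% and 3.50% after 72 h. The 72 h libraries all lay above the sham libraries, with 24, 19 and 14 peaks against 11, 14 and 11, and above every other library except replicate 3 of 24 h. The windows of all protein-coding genes, taken the same way, were covered for 2.53%, 2.85% and 2.39% after 72 h and 2.14%, 2.83% and 2.22% in sham. For the 10 windows the means were 4.05% at 72 h and 2.28% in sham, and 2.66% and 1.46% with peak lists of equal length. With equal lists the means of both groups were lower, and so was their difference in percentage points. The 72 h libraries still lay above sham. When each library kept its 34255 highest-scoring peaks, the 72 h values were 2.37%, 2.30% and 3.31% and the sham values 1.46%, 0.846% and 2.06%, and replicate 3 of 6 h, at 2.60%, lay within the 72 h range. Coverage of marker genes of heart cell types is given beside these values, as a statement on DNA and not on expression, and without a test. The mean over all protein-coding genes was 2.88% to 3.53% after 72 h and 2.53% to 3.50% in sham. The mean over 8 cardiomyocyte markers was 3.51% to 5.78% after 72 h and 1.59% to 2.61% in sham, with a peak at 7 and 8 of the 8 genes. For 8 macrophage and leukocyte markers it was 1.34% to 1.55% after 72 h and 0.133% to 1.21% in sham, with a peak at 4 and 3 genes, and Lyz2, Cd68 and S100a8 had no peak in any library. For 6 endothelial markers it was 1.55% to 3.51% against 1.78% to 3.08%, with Cldn5 at 0 throughout, and for 6 fibroblast markers 2.15% to 4.07% against 1.97% to 2.82%, with Tcf21 at 0 throughout. The part of list length or cell mix in the values at 72 h was not tested.

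**Figure D2:**
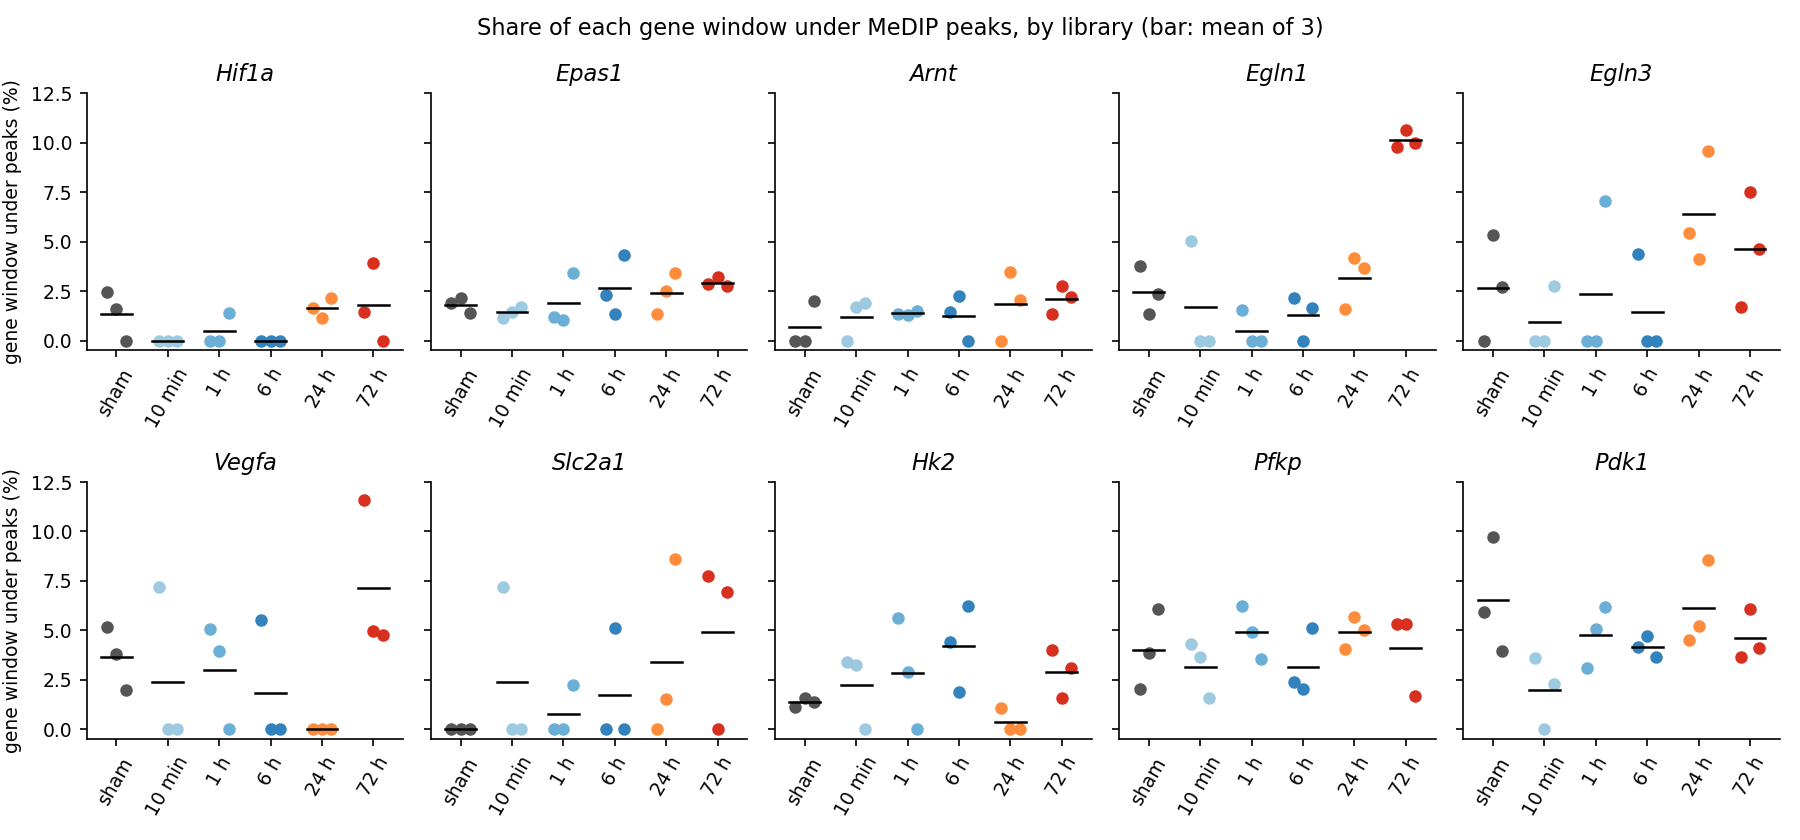
Coverage of each of the 10 gene windows (percent of the window under peaks, y axis) by group (x axis). Each point is 1 library and each bar the mean of 3. At Egln1 the 3 libraries of 72 h, at 9.78% to 10.7%, sit above the other 15, at Vegfa the 24 h libraries are all at 0, and at Slc2a1 the sham libraries are all at 0.

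Across the time course the clearest pattern was at Egln1, whose coverage at 72 h lay above that in every other library. Vegfa had no peak at 24 h, Slc2a1 none in sham, and Hif1a none at 10 min and at 6 h, while Epas1 and Pfkp had peaks in every library. No member passed the adjusted test in any comparison. Each gene was compared over the 6 groups and for each time against sham with limma on log2(coverage + 0.5), fitted to the 12628 protein-coding genes with a peak in at least 6 libraries and adjusted over all of them by the Benjamini-Hochberg method. None of the 10 members passed an adjusted p of 0.05 in the test over 6 groups, in which 22 of 12628 genes (0.174%) passed. None passed in MI against sham, where 0.0317% of genes did. None passed at a single time either, where the share of genes was 0.0396% for 10 min and 6 h, 0.0475% for 1 h, 0.0317% for 24 h and 0.0158% for 72 h. At an unadjusted p under 0.05, 1 member (Egln1) passed over 6 groups, where 6.72% of all genes did. The same count was 1 (Pdk1) at 10 min, beside 4.78% of genes, and 1 (Vegfa) at 24 h, beside 4.42%. It was 0 for MI, beside 4.13%, for 1 h, beside 4.81%, for 6 h, beside 5.69%, and for 72 h, beside 4.39%. An exact two-sided permutation test of MI against sham, with 15 libraries against 3, called 0 of 12628 genes after adjustment and 603 at an unadjusted p under 0.05, with members' unadjusted p from 0.116 (Pdk1) to 0.955. Whole groups of 3 against 3 were also compared by overlap. Libraries of a time all above sham were found for 3 members at 72 h (Epas1, Egln1 and Hk2), beside 6.15% of genes, and for 1 at 6 h (Hk2), beside 2.51%. None was found at 10 min, 1 h or 24 h, beside 2.55%, 1.84% and 2.97%. All below sham were 1 member at 10 min (Pdk1), beside 5.97%, and 2 at 24 h (Vegfa and Hk2), beside 5.88%. None was below at 1 h, 6 h or 72 h, beside 8.1%, 6.15% and 3.37%. Against all 15 other libraries, 0 members were lower at 72 h, beside 0.00792%. The 5 times share the 3 sham libraries, so their differences are not independent of each other.

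**Figure D3:**
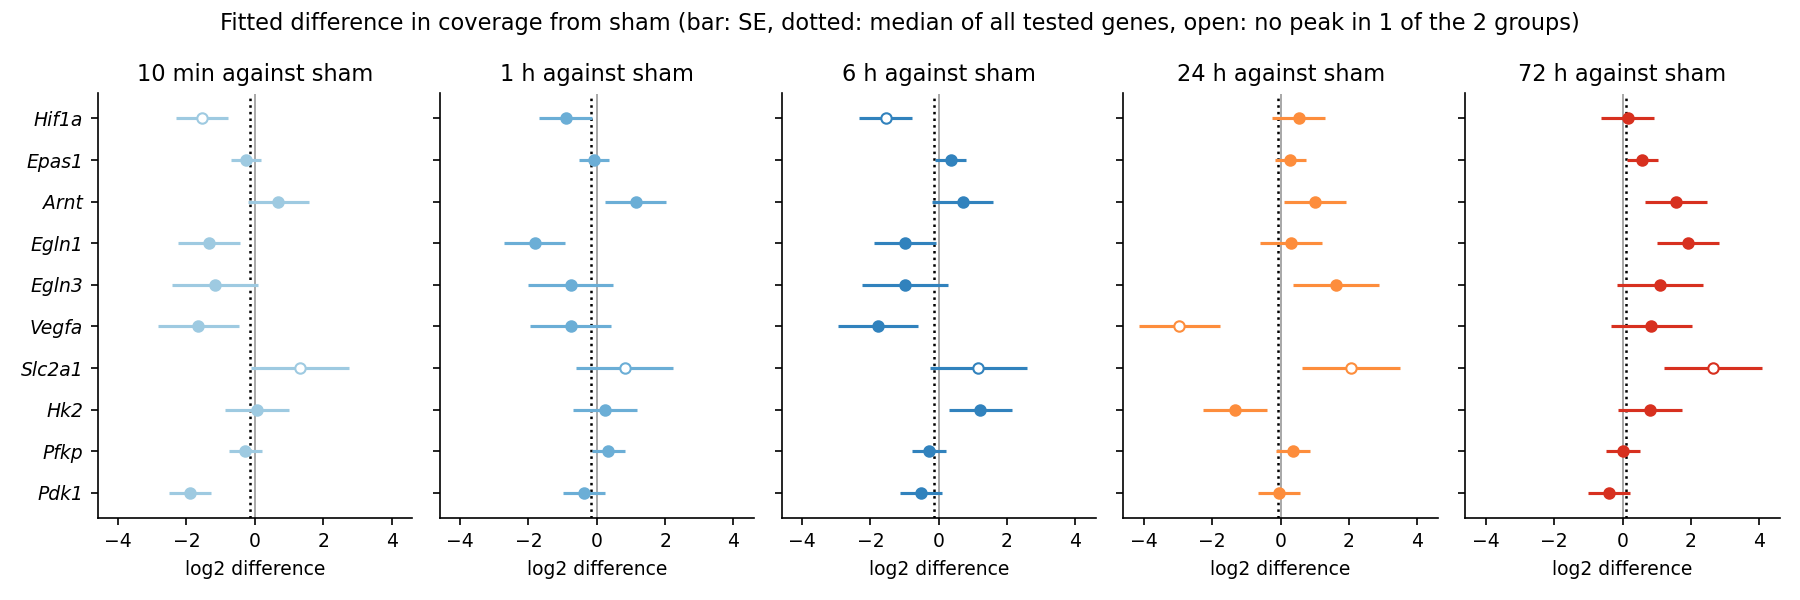
Fitted log2 difference in coverage from sham (x axis) for each gene (y axis) at each time, with its SE as a bar and the median of all 12628 tested genes as a dotted line. Open points have no peak in any library of 1 of the 2 groups, so their size depends on the added 0.5. At 72 h 9 of the 10 points lie right of 0, beside 57.6% of all tested genes, and at 10 min 3 do, beside 39.2%.

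At 72 h the fitted difference from sham was above 0 for 9 of the 10 genes, beside 57.6% of all tested genes. The median was 0.82 on the log2 scale against 0.09 for all tested genes. With lists of equal length the difference was above 0 for 8 of the 10, with a median of 0.49 against -0.01. At 10 min it was above 0 for 3 of the 10, beside 39.2% of all tested genes, with a median of -0.72 against -0.13. With equal lists it was above 0 for 5 of the 10, with a median of -0.34 against 0.00. The medians of the members at 1 h and at 6 h were -0.23 and -0.40 against -0.18 and -0.15 for all genes, and with equal lists both turned positive, at 0.08 and 0.17. At 24 h the median was 0.33 against -0.08, and with equal lists 0.09 against -0.03. Single libraries moved these medians. Without sham replicate 2 the median was -0.34 at 10 min, -0.0049 at 1 h and -0.22 at 6 h, and without sham replicate 3 it was -0.35 at 1 h. Without 1 h replicate 1 or 2 it was -0.12 or -0.10 at that time, without 6 h replicate 2 it was -0.15 at 6 h, and without 24 h replicate 1 it was 0.54 at 24 h. The count above 0 at 10 min was 1 of 10 without replicate 1 of that time. At 72 h the median stayed between 0.58 and 1.00 and the count between 7 and 9 with any library of 72 h or sham left out.

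The genes of the alpha subunits, Hif1a and Epas1, had mean coverage of 0.875% ± 1.16 and 2.19% ± 0.961 (SD, n = 18). Their libraries overlapped, with ranges of 0% to 3.95% and 1.02% to 4.31%, and the difference was not tested. Hif1a, the subunit found in nearly all cells, had coverage of 2.45%, 1.62% and 0% in sham, 0% in all 3 libraries at 10 min, 0%, 0% and 1.38% after 1 h and 0% in all 3 at 6 h. It was 1.66%, 1.13% and 2.14% after 24 h and 1.43%, 3.95% and 0% after 72 h. Peaks were missing from 8 of the 9 libraries of the first 3 times and present in 5 of the 6 libraries of the last 2, while sham had both. All 3 libraries of 72 h were at 0% with lists of equal length, so that 3 of the 6 late libraries, those of 24 h, kept a peak. The 6-group limma p was 0.0628, adjusted 0.759. Both Hif1a regions lay at the upstream end of the gene span. The first, chr12:73899652-73900725, ended 599 bases before the span and 7142 bases before the listed start, and was present in sham replicate 2, 1 h replicate 3, 72 h replicates 1 and 2 and all 3 libraries of 24 h, with scores from 56.9 to 75.5. The second, chr12:73901665-73903052, began 341 bases into the span and was present in sham replicate 1, with a score of 62.4, and in 72 h replicate 2, with 69.3.

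Epas1 encodes HIF-2 alpha, which is prominent in endothelial cells. Its coverage was 1.92%, 2.15% and 1.38% in sham, 1.15%, 1.45% and 1.68% after 10 min, 1.21%, 1.02% and 3.40% after 1 h, 2.33%, 1.34% and 4.31% after 6 h, 1.36%, 2.51% and 3.40% after 24 h and 2.85%, 3.19% and 2.76% after 72 h. The 72 h libraries were above sham without overlap, as were 6.15% of all tested genes, and the limma difference was 0.58 ± 0.45 (SE) on the log2 scale, adjusted p = 1. The difference was not kept with lists of equal length: the mean was 1.05% at 72 h and 1.10% in sham, and the groups overlapped. The most frequent region lay in the middle of the gene, chr17:86794512-86796202, present in 17 of 18 libraries and missing only from sham replicate 1. Its score averaged 74.3 ± 29.3 (SD, n = 17), with 52.1 and 65.5 in the other sham libraries. The scores at 72 h were 121, 61.6 and 166, and the last is the highest of all 224 member peaks. The scores of the other MI libraries ran up to 86.3, so replicates 1 and 3 of 72 h stood above them and replicate 2 did not. The remaining 6 regions of Epas1 were each seen in 1 to 7 libraries.

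Arnt encodes the partner that both alpha subunits need. Its coverage was 0%, 0% and 2.0% in sham and 1.34%, 2.76% and 2.20% after 72 h, and at the other times it reached 1.90%, 1.52%, 2.24% and 3.48% in turn, with 0% in 1 library each at 10 min, 6 h and 24 h. Groups overlapped at every time, and the limma difference at 72 h was 1.56 ± 0.90 (SE), adjusted p = 1. One region inside the gene, chr3:95467845-95469388, 33455 bases from the listed start, had no peak in the 3 sham libraries. It had one in 2 of 3 libraries of 10 min, 2 of 1 h, 1 of 6 h, 1 of 24 h and all 3 of 72 h, which makes 9 of 15 MI libraries, and its scores ran from 57.9 to 83.2. A region is called gained here where 3 of 3 libraries of a time and 0 of 3 sham libraries had it, a rule with no p-value, since 3 against 3 libraries cannot give an exact p below 0.1. By this rule it was the 1 of the members' 50 regions gained at 72 h, and 0.719% of all regions were gained then. With lists of equal length 1 of the 3 libraries of 72 h had it, and the call was lost, as it was with a minimum score of 100. The count of members' regions gained at 72 h was 4 without replicate 2 of that time (this region and others at Egln1, Vegfa and Slc2a1) and 2 without replicate 1 (this one and another at Egln3). With a 72 h library left out, the rule asked for 2 of 2 libraries, which is easier to meet. The share of all regions that met this easier rule is not given here, so these counts cannot be set beside 0.719%.

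Egln1 encodes PHD2, the main oxygen sensor among the prolyl hydroxylases. Its coverage was 3.76%, 1.33% and 2.35% in sham, 5.04%, 0% and 0% after 10 min, 1.52%, 0% and 0% after 1 h and 2.15%, 0% and 1.66% after 6 h. It was 1.60%, 4.19% and 3.69% after 24 h and 9.78%, 10.7% and 10.0% after 72 h. The mean at 72 h, 10.2% ± 0.459 (SD, n = 3), was 4.09 times that of sham, 2.48% ± 1.22, and the 3 libraries lay above all 15 others. Among all tested genes 0.768% had their 72 h libraries above the other 15, 97 in number, and Egln1 was the only member among them. The 6-group limma p was 0.0115, adjusted 0.510. The limma difference at 72 h was 1.92 ± 0.90 (SE) on the log2 scale, adjusted p = 1. With lists of equal length the 72 h values were 5.91%, 7.55% and 10.0%, still above the other 15, as at 0.256% of the genes then tested.

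The 72 h libraries held 4, 3 and 4 peaks at Egln1, against 0 to 2 in each other library, and they were spread along the gene. The most frequent region, chr8:124909384-124911500, lies near the far end of the gene and was present in 9 libraries, including 2 of sham and all 3 of 72 h, where its scores were 138, 65.9 and 72.7. The region chr8:124928901-124931469 was present in 1 sham library, 2 of 24 h and 2 of 72 h, and chr8:124936220-124937451 in 1 library of each group but 24 h, which had none, and 72 h, which had 2. The region nearest to the start, chr8:124945999-124946840, began 2414 bases into the gene and was seen only in 72 h replicates 1 and 3, with scores of 93.8 and 70.7. The remaining 2 regions were seen in a single 72 h library each. No Egln1 region met the rule for gained at 72 h. The region chr8:124909384-124911500 was in all 3 libraries of 72 h but also in 2 of sham, and was called gained when at least 50% of it had to be covered. Each of the other regions was in 1 or 2 libraries of 72 h, so the 3 libraries had similar totals from partly different regions. The 2 regions nearest to the start overlap the annotated span of the long noncoding RNA Gm46060, and peaks do not tell the genes apart.

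**Figure D4:**
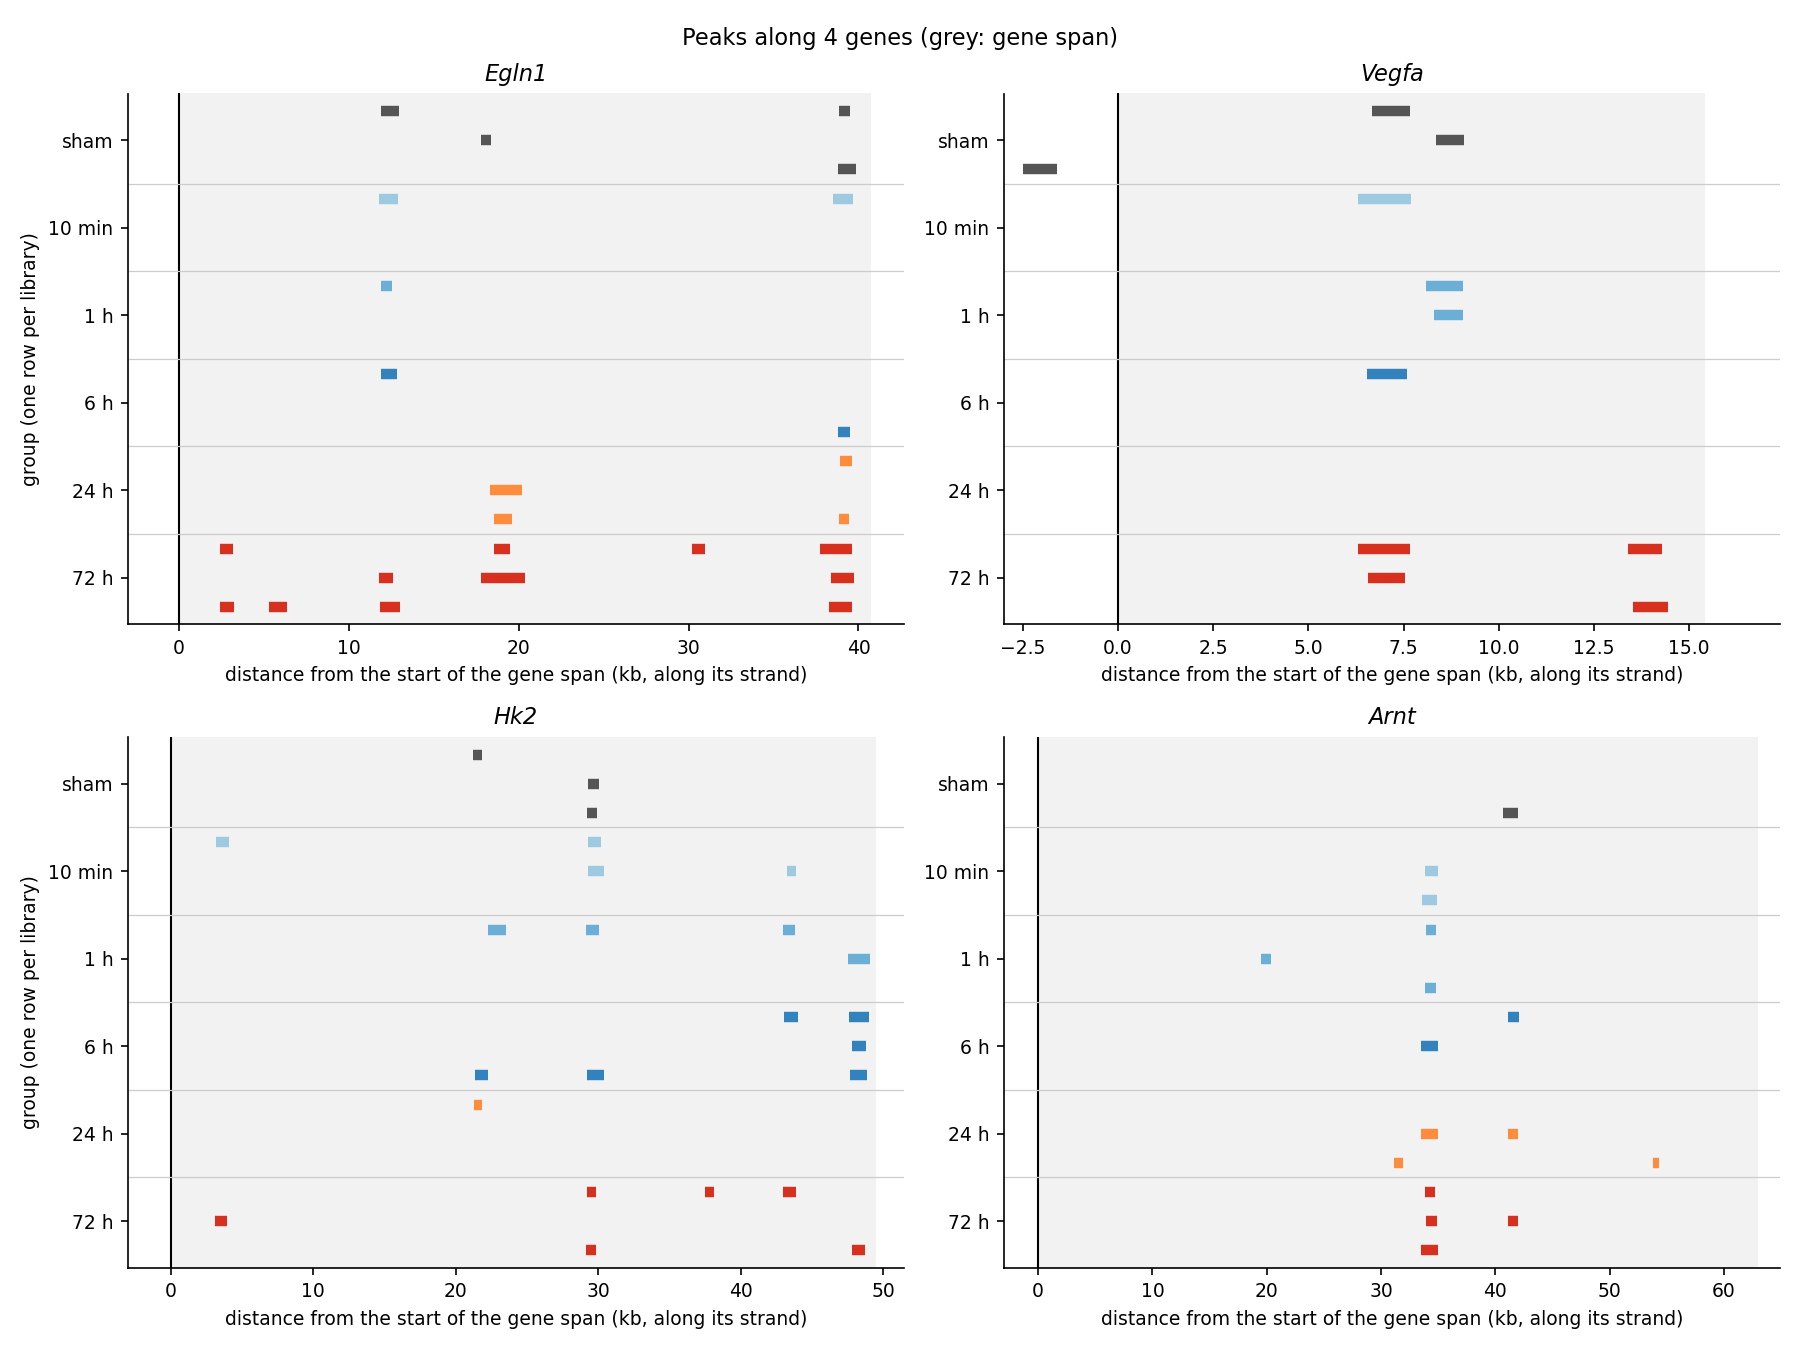
Peaks along Egln1, Vegfa, Hk2 and Arnt. Each row is 1 library, grouped by time with the same colours as the coverage plot, and each bar is 1 peak at its distance from the start of the gene span along the gene's strand (x axis, kb), with the span in grey. Egln1 carries 4, 3 and 4 peaks in the 72 h libraries, Vegfa none at 24 h, and the most frequent Arnt region is absent from sham and present in all 3 libraries of 72 h.

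Egln3 encodes PHD3, a prolyl hydroxylase that is itself induced by HIF. Its coverage was 0%, 5.33% and 2.70% in sham, and 2 of the 3 libraries were at 0% after 10 min, at 1 h and at 6 h, with 2.77%, 7.05% and 4.39% in the remaining library. All libraries had a peak at 24 h, with 5.43%, 4.12% and 9.61%, and at 72 h, with 1.71%, 7.49% and 4.65%. A peak was kept by 1 library of 24 h (4.12%) and 1 of 72 h (4.65%) with lists of equal length, and the means were 1.37% and 1.55%, beside 0.899% in sham and 0.923% to 1.46% at the earlier times. The late libraries overlapped sham, and the 6-group p was 0.195, adjusted 0.897. The most frequent region, chr12:54183297-54185295, was present in 8 libraries: 2 of sham, 1 each at 10 min, 1 h and 6 h, and all 3 at 24 h. No library of 72 h had it, and the peaks of 72 h lay in other regions of the gene.

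Vegfa encodes the growth factor that drives the sprouting of vessels. Its coverage was 5.16%, 3.79% and 1.99% in sham, 7.19%, 0% and 0% after 10 min, 5.07%, 3.96% and 0% after 1 h, 5.50%, 0% and 0% after 6 h, 0% in all 3 libraries at 24 h and 11.6%, 4.98% and 4.76% after 72 h. The 24 h libraries had no peak and lay below all sham libraries, which 5.88% of all tested genes also did. With lists of equal length 1 sham library kept a peak and the groups overlapped. The adjusted limma p of 24 h against sham was 0.992, and the 6-group p was 0.0674, adjusted 0.766. The 72 h libraries overlapped sham. The 3 sham libraries each had 1 peak, in 3 different regions, so that no Vegfa region could be lost by the rule.

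The Vegfa region over the internal start printed above, chr17:46024676-46026068, was present in sham, 10 min, 6 h and 72 h replicate 1 and in 72 h replicate 2, with scores of 65.3, 52.4, 79.5, 75.5 and 96.3. Its neighbour chr17:46023292-46024291, 872 bases from that start, was present in sham replicate 2 and 1 h replicates 1 and 2. The only region upstream of the first start, chr17:46033993-46034870, ended 1616 bases before it and was seen in sham replicate 3, with a score of 55.1. The fourth region, chr17:46017929-46018975, near the far end of the gene, was seen in 72 h replicates 1 and 3 and in no other library, with scores of 112 and 89.8.

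Slc2a1 encodes GLUT1, a glucose transporter of the cell membrane. No sham library had a peak at this gene, and coverage was 7.16%, 0% and 0% after 10 min, 0%, 0% and 2.22% after 1 h, 0%, 5.13% and 0% after 6 h, 0%, 1.51% and 8.60% after 24 h and 7.74%, 0% and 6.92% after 72 h. Peaks were thus present in 7 of 15 MI libraries, with at least 1 library at 0% in each group. The 6-group limma p was 0.539, adjusted 0.947. The widest of its 4 regions, chr4:119131406-119134209, was present in 5 MI libraries, 1 each at 10 min, 6 h and 24 h and 2 at 72 h, with scores from 70.9 to 91.2, and it overlaps the noncoding RNA Gm12867. The region with the highest mean score at any member, chr4:119116668-119117158, rests on 1 peak, in 24 h replicate 2, with a score of 124.

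Hk2 encodes hexokinase 2, which phosphorylates glucose in the first step of glycolysis. Its coverage was 1.14%, 1.55% and 1.38% in sham, 3.39%, 3.23% and 0% after 10 min, 5.62%, 2.91% and 0% after 1 h, 4.43%, 1.89% and 6.23% after 6 h, 1.08%, 0% and 0% after 24 h and 3.99%, 1.58% and 3.07% after 72 h. The 6 h libraries lay above all sham libraries, as at 2.51% of tested genes, and so did those of 72 h. The 24 h libraries lay below them. The limma differences were 1.22 ± 0.93 (SE) at 6 h, adjusted p = 0.919, and -1.33 ± 0.93 at 24 h, adjusted p = 0.992. The sham libraries lay closest together of the 6 groups, with an SD of 0.208. At 72 h the lowest value exceeded the highest of sham by little, 1.58% against 1.55%. With lists of equal length the 6 h libraries still lay above sham, and those of 24 h and 72 h overlapped it.

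One Hk2 region was gained at 6 h, where 0.201% of all regions were. It lies at chr6:82725407-82726960, near the far end of the gene, and had no peak in sham, at 10 min or at 24 h, a peak in 1 library of 1 h, in all 3 of 6 h and in 1 of 72 h. Its scores at 6 h were 61.0, 97.5 and 69.8. The call was kept with lists of equal length and when at least 50% of the region had to be covered, and was lost with a minimum score of 100, at which no library had it. The most frequent Hk2 region, chr6:82744083-82745329, was present in 8 libraries: 2 of sham, 2 of 10 min, 1 of 1 h, 1 of 6 h, none of 24 h and 2 of 72 h.

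Pfkp encodes the platelet form of phosphofructokinase, the enzyme of the committed step of glycolysis. Its coverage was 2.05%, 3.82% and 6.08% in sham, 4.29%, 3.62% and 1.56% after 10 min, 6.23%, 4.92% and 3.55% after 1 h, 2.36%, 2.02% and 5.09% after 6 h, 4.07%, 5.65% and 5.03% after 24 h and 5.30%, 5.31% and 1.69% after 72 h. Each time overlapped sham, and the 6-group p was 0.646, adjusted 0.948. The gene held 2 recurrent regions. The region chr13:6621469-6622818 was present in 15 libraries, with a mean score of 96.4 ± 21.4 (SD, n = 15), and was missing from 10 min replicate 3, 6 h replicate 2 and 24 h replicate 3. The region chr13:6592981-6595020 was present in 14 libraries, with a mean score of 65.1 ± 7.35 (SD, n = 14), and was missing from sham replicate 1, 6 h replicates 1 and 2 and 72 h replicate 3. Upstream of the gene, chr13:6650388-6652305 ended 1617 bases before the listed start, and was present in 8 libraries over all 6 groups, 2 of them sham.

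Pdk1 encodes a kinase that switches off pyruvate dehydrogenase and so holds pyruvate back from the mitochondria. Its coverage was 5.93%, 9.69% and 3.94% in sham, 3.60%, 0% and 2.27% after 10 min, 3.11%, 5.05% and 6.18% after 1 h, 4.16%, 4.71% and 3.64% after 6 h, 4.50%, 5.24% and 8.57% after 24 h and 3.66%, 6.08% and 4.10% after 72 h. The 10 min libraries lay below all sham libraries, as at 5.97% of tested genes, and the other times overlapped sham. The limma difference at 10 min was -1.89 ± 0.61 (SE), adjusted p = 0.729. Without 10 min replicate 2, the library at 0%, it was -0.98, and with lists of equal length the groups overlapped. The region chr2:71888114-71889903, in the middle of the gene, was present in the other 17 libraries and had the highest mean score among the recurrent regions, 109 ± 28.5 (SD, n = 17). Its scores were 101, 164 and 73.3 in sham, 110 and 77.0 in the 10 min libraries that had it, and between 72.9 and 155 in the other MI libraries, so the groups overlapped. The region chr2:71879065-71879885 was present in 2 sham libraries, 1 of 1 h and all 3 of 24 h.

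No region of the 10 genes was lost at any time, while the share of all regions was 0.624% for 10 min, 0.553% for 1 h, 0.706% for 6 h, 0.524% for 24 h and 0.397% for 72 h. None was gained at 10 min, 1 h or 24 h, where 0.216%, 0.225% and 0.393% of all regions were. In MI against sham, with gained set at 12 or more of the 15 MI libraries and none of sham, and lost at 3 or fewer MI libraries and all of sham, 0 of 50 regions were called either way, beside 0.0375% and 0.252% of all regions.

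A wider list of 53 further genes of the hypoxia response and glycolysis was counted the same way, with Kdr also on the endothelial marker list. At 10 of them no library had a peak, 28 passed the filter, and none of the 28 passed an adjusted p of 0.05 in any comparison with limma. At an unadjusted p under 0.05, 4 of 28 passed over 6 groups, beside 6.72% of all genes, and 2 in MI against sham (1 higher, 1 lower), beside 4.13%. None passed at 10 min, beside 4.78%, or 1 h, beside 4.81%. At 6 h 3 passed (1 higher, 2 lower), beside 5.69%, at 24 h 2 (1 and 1), beside 4.42%, and at 72 h 4 (3 higher, 1 lower), beside 4.39%. The median difference at 72 h was 0.17 on the log2 scale, against 0.09 for all genes, with 18 of 28 (64.3%) above 0 against 57.6% of all genes. At 10 min it was -0.29 against -0.13 for all genes, at 1 h -0.11 against -0.18, at 6 h -0.27 against -0.15 and at 24 h -0.10 against -0.08.

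The 4 genes with the lowest 6-group p came from several steps of the pathway. Epo, the hormone erythropoietin and the classical HIF target, had coverage of 16.2% to 19.9% in sham and 15.4% to 20.2% after 72 h, no peak in any library at 6 h, and 0%, 0% and 11.4% after 24 h (limma, adjusted p = 0.380). Eno1, the glycolytic enzyme enolase 1, had no peak at 10 min, 5.73% to 8.82% after 6 h and 5.24% to 7.74% after 72 h, with 0%, 0% and 3.99% in sham (adjusted p = 0.596). Slc2a4, the insulin-responsive glucose transporter of heart and skeletal muscle, had no peak in the sham libraries, 10.4% to 23.1% after 24 h and 8.17% to 33.3% after 72 h (adjusted p = 0.718). Ldhb, the heart form of lactate dehydrogenase, had none in sham or at 10 min and 4.13% to 7.06% after 72 h (adjusted p = 0.690). None of the 4 passed the adjusted test, and they are named for their rank alone.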

How the data were processed

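Peaks were called by the authors on each of the 18 MeDIP-seq libraries, aligned to mm10 (GRCm38), and the tools named are Bowtie2 and MACS2, per the submitters' processing notes; versions, options and any input control are not given in the sources used here. Each deposited list gives chromosome, start, end, name and a score, and no list gives counts. Gene spans and promoters came from RefSeq's GRCm38.p6 tables, and exons were not used here. Peaks sharing at least 1 base were joined into merged regions. Coverage was tested with limma 3.58.1 (R 4.3.3, empirical Bayes with a trend) on log2(percent + 0.5) over 12628 genes with a peak in at least 6 libraries. Tables and figures used Python 3.11.15, pandas 2.3.3, numpy 2.4.6, scipy 1.17.1 and matplotlib 3.10.9. The 10 genes, the wider list, the marker lists and the tests were chosen with earlier results of these data known. All 10 genes are named; regions are named in full where 12 or more libraries had them, where they were gained or lost, for the 2 highest mean scores and within 2000 bases of a start; a few others that the values of a gene rest on were chosen after their values were seen. Of the wider list, the 4 lowest p over 6 groups are named. Alternatives were list length, score minimum, pseudocount, filter, window, region cover, a replicate block, an exact test and leaving out each library.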

Additional observations from a re-analysis of the deposited data

Results flagged for a closer look

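In 6 pairs of times, the 3 libraries of one time all lay above the mean of the sham libraries at one of the 10 genes and the 3 libraries of another time all lay below it. The difference between the 2 times was not tested in any of them, and groups of 3 were not searched for single libraries that stand apart. The rule was applied to the 10 genes alone. The share of all genes that meet it was not counted, so these pairs cannot be called unusual. For Epas1, the mean coverage at 72 h exceeded the 10 min mean by 1.51 percentage points. With lists of equal length this turned, with a mean of 1.05% at 72 h and 1.42% at 10 min, while the differences below kept their direction. For Egln1, the 72 h mean exceeded the 1 h mean by 9.64 points and the 6 h mean by 8.88 points. For Vegfa, the 72 h mean exceeded the 24 h mean, where no library had a peak, by 7.12 points. For Hk2, the 24 h mean was exceeded by 3.82 points at 6 h and by 2.52 points at 72 h.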

How the results depend on the processing

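No member passed an adjusted p of 0.05 in any of 24 alternative fits. The lowest adjusted p was 0.148 over 6 groups (Egln1, without 10 min replicate 1) and 0.259 for a contrast with sham. With 1 library left out, the adjusted limma p of Egln1 over 6 groups reached 0.904, without 72 h replicate 1. Its unadjusted p ran from 0.000498 to 0.0372. Egln1 at 72 h against sham kept its direction, with a log2 difference from 1.61 to 2.22, and Pdk1 at 10 min from -0.98 to -2.70. At a minimum score of 100 only Pfkp and Pdk1 had enough peaks to be tested. Little pairing by replicate number was seen. Libraries with the same number deviated from their group means with a mean correlation of 0.00524, and those with different numbers with -0.0026. Of the 45 correlations between libraries of the same number, 0 exceeded 0.1. On average over the libraries of each of the 3 numbers, 9 of 18 libraries correlated best with their own number.

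The number of genes called over all genes did depend on the setting; the cause was not tested. For 6 groups it was 22, and 4 with equal lists, 5 at a score of 100 or more, 42 with no filter and 13 with the replicate block. For MI against sham it was 4, and 1 with equal lists, 2 at a score of 100, 7 with a pseudocount of 0.1, 8 with no filter and 0 by the exact test. At 10 min it was 5, and 1, 2 and 9 with equal lists, a score of 100 and no filter, and 2 with the gene span alone. At 1 h it was 6, and 2 with equal lists and 2 at a score of 100. At 6 h it was 5, and 0 and 2. At 24 h it was 4, and 0 and 2, with 8 under no filter. At 72 h it was 2, and 1 and 0, with 17 under no filter. Leaving out 1 library gave 11 to 41 genes over 6 groups, 0 to 8 for MI, 3 to 16 at 10 min, 5 to 15 at 1 h, 3 to 17 at 6 h, 1 to 7 at 24 h and 0 to 7 at 72 h.

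Of the members' regions, 1 was gained at 6 h, and 0 at a score of 100. At 24 h 0 were gained, and 1 (at Egln3) with 50% cover. At 72 h 1 was gained, and 0 with equal lists, 0 at a score of 100 and 2 with 50% cover (at Arnt and Egln1). Leaving out 1 library gave 1 to 4 gained at 72 h and 0 to 1 gained or lost in the comparisons with a main count of 0. A group with a library left out was judged on its remaining 2, which is an easier rule. Shares of all regions are given for the main setting alone, so the counts under these alternatives have no share beside them. The depth of sequencing is unknown, so no lower limit of detection can be given for a missing peak.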
